A study of Mus musculus with 7 samples.

Results

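The genes described here are the sugar, phosphate and carboxylate transporters of the embryonic mouse kidney, taken as every row of the deposited expression table whose symbol begins with Slc2a, Slc5a, Slc13a, Slc16a, Slc17a, Slc20a, Slc34a or Slc37a and a number. The rule found 48 of the 16167 listed genes, and it did not use their values. One of the 48, Slc2a4rg-ps, is a pseudogene named after a regulator of Slc2a4 and is not a carrier. RNA was sequenced from whole kidneys of embryos at E15.5 in 7 libraries. The 4 mutant libraries, labelled Six2-Cre; Irx3/5(loxP/loxP), came from embryos with floxed Irx3 and Irx5 on both chromosomes and a Cre recombinase driven by Six2, which is active in nephron progenitors. The 3 control libraries, labelled Irx3/5(loxP/+), came from littermates with 1 floxed chromosome, so by the titles all 7 libraries carry at least one floxed allele. The genotype field of the control libraries reads WT, which does not match their titles, and the groups here follow the titles. The control labels name no Cre, and the deletion and the Cre transgene therefore cannot be told apart. The number of embryos behind each library is not stated. P-values here therefore reflect the spread among these 7 samples, which may be partly technical. Irx3 and Irx5 encode homeobox transcription factors. The comparison asks how these transporters differ in kidneys whose nephron lineage was targeted for loss of both genes.

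Solute carriers move small molecules across membranes. In the kidney they line the proximal tubule, the nephron segment that takes glucose, phosphate, lactate, citrate and sulfate back from the filtrate. Carriers on the side facing the tubule lumen are mostly driven by the sodium gradient kept up by the sodium pump, and carriers on the blood side let the solute leave the cell. Other members of the same families are housekeeping carriers that many cell types use for glucose uptake, lactate exchange and phosphate supply.

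The libraries held 53497462, 46255680, 45539155 and 51702442 reads in mutants 1 to 4 and 69028943, 59518537 and 40511920 reads in controls 1 to 3, as recovered from the deposited values. Irx3 was 6.63, 3.98, 5.57 and 6.75 FPKM (fragments scaled to transcript length and sequencing depth, a level per length) in mutants 1 to 4 and 14.7, 14.2 and 12.7 FPKM in controls 1 to 3. It fell by 1.16 on the log2(FPKM + 1) scale (SE 0.15, adjusted p = 0.0145, limma), but by 1.12 with an adjusted p of 0.0860 without control 1 and by 1.14 with an adjusted p of 0.105 without control 2. Irx5 was 2.05, 0.895, 1.13 and 2.03 FPKM in mutants and 1.36, 1.55 and 1.59 FPKM in controls. Its RNA was not lower by test (log2 fold change -0.01, SE 0.17, adjusted p = 0.989, limma), so these values do not show its loss. Which exons the floxed sites flank is not stated, so RNA that remains does not show an intact gene. Embryonic beta-globin Hbb-y, which gives way to adult globin as embryos age, was 1.38%, 1.53%, 10.5% and 2.24% of adult Hbb-bs in mutants 1 to 4 and 1.34%, 1.39% and 3.45% in controls 1 to 3. Mutant 3 stands apart from the other libraries in this ratio. Limma results of several members are also given without mutant 3, while the deposited results and the sums include it.

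Slc5a1, a sodium-glucose carrier, and Slc5a8, a sodium-monocarboxylate carrier, fell by limma on log2(FPKM + 1), and no other of the 35 members with enough signal to test was called (adjusted p under 0.05). Of all 13466 genes tested, 1.53% were called, with 1.05% lower and 0.475% higher. Before adjustment, 14 members were lower and 1 was higher at p under 0.05, and among all tested genes 1142 were lower and 708 higher. The median log2 fold change, mutant over control, was -0.16 over the 35 members and -0.00 over all tested genes. In the authors' deposited table, from a DESeq2 comparison of counts, 12 of the 48 were lower and 0 were higher at an adjusted p under 0.05, which is 25.0% of the members against 5.49% of all genes with a p-value, of which 3.74% were lower and 1.75% higher. These 12 were Slc5a1, Slc5a8, Slc5a9, Slc5a11, Slc5a12, Slc2a5, Slc16a4, Slc16a5, Slc16a12, Slc13a1, Slc17a3 and Slc17a4.

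The remaining 13 members did not reach 1 FPKM in at least 3 libraries and were not tested by limma, and 5 of them are among the 12 that the deposited table calls lower. Slc2a5, Slc13a1 and Slc17a1 passed that filter through the control libraries, since only mutant 1 reached 1 FPKM among the mutants. In 19 of the 48 members every mutant library lay below every control library, against 8.65% of all listed genes, and in 1 member, Slc2a3, every mutant lay above every control, against 5.91% of all listed genes. The groups overlapped in the other 28 members. Among the 35 tested members 13 lay apart and lower and 1 lay apart and higher, against 8.61% and 5.93% of all tested genes. All 12 members lower in the deposited table were among those 19, together with Slc2a2, Slc2a8, Slc16a1, Slc16a13, Slc13a2, Slc34a1 and Slc17a1.

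**Figure D1:**
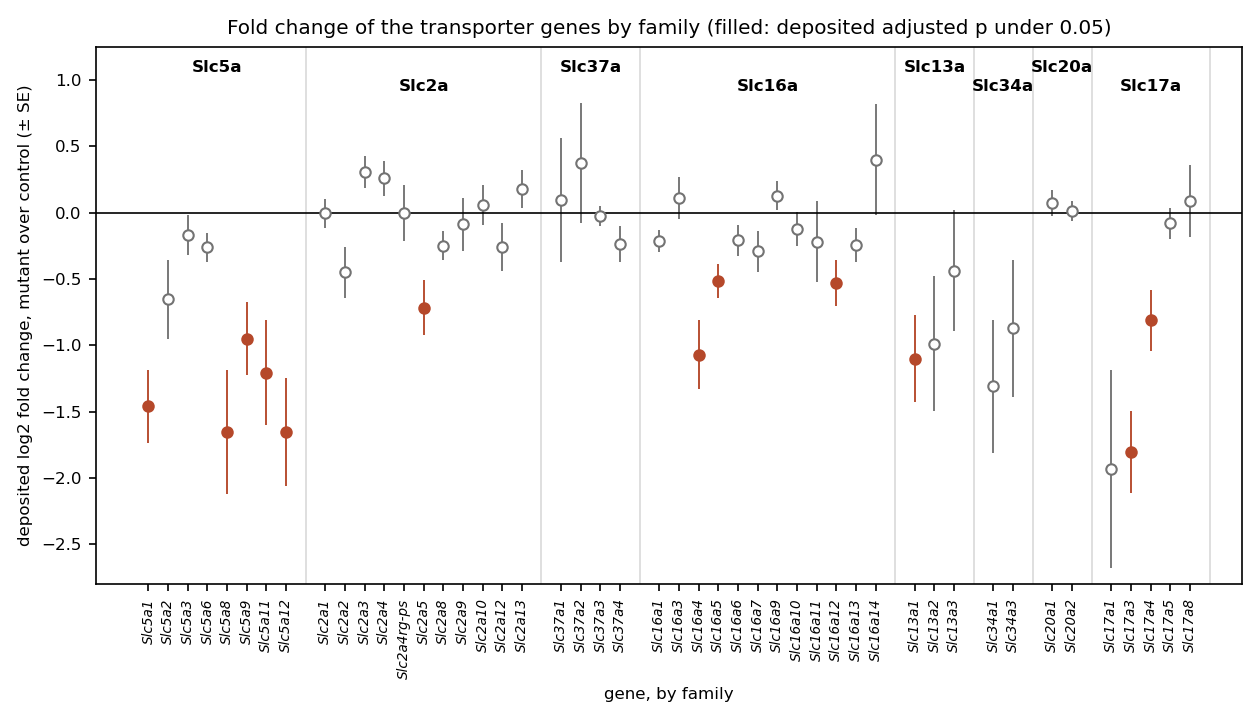
Deposited log2 fold change, mutant over control, of 47 of the 48 genes with its standard error (y axis), ordered by family (x axis); filled points have a deposited adjusted p under 0.05. All 12 filled points lie below 0, 5 of them in Slc5a, while Slc37a, Slc34a and Slc20a have none.

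Promoter sequences of 3 members are shown because these carriers stand for the results below: Slc34a1, the phosphate carrier with the highest level among the lower members, and Slc5a1 and Slc5a8, the members that fell by limma. Each runs 5′ to 3′ on the gene's strand from 250 bases before to 50 bases after the RefSeq start, on build GRCm38.p6, an older build than that of the expression table. The windows are chr13:55399398-55399697 (plus strand) for Slc34a1, chr5:33103969-33104268 (plus strand) for Slc5a1 and chr10:88885742-88886041 (plus strand) for Slc5a8. Capitals mark the letters ACGTG on either strand, the core of the hypoxia element, which can overlap where the strands mirror each other.
Slc34a1: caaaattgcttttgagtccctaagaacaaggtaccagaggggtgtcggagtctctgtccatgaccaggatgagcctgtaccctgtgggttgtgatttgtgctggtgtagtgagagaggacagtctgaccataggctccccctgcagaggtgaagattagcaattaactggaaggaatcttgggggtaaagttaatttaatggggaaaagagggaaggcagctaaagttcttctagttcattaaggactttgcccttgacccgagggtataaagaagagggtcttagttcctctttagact
Slc5a1: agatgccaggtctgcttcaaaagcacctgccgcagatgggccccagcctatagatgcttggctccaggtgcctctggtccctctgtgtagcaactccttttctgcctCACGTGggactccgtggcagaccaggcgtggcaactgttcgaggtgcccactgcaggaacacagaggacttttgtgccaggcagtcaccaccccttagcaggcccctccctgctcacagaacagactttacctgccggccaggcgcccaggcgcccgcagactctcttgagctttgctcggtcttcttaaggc
Slc5a8: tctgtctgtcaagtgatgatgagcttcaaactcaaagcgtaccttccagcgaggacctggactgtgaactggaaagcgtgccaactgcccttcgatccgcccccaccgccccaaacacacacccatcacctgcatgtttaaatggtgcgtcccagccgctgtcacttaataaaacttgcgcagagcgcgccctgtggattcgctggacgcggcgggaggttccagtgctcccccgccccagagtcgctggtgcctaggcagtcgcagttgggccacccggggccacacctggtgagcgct
RefSeq promoter windows were at hand for 34 of the 48 members. ACGTG was found on either strand in 10 members, among them Slc5a1, or 29.4% of the members with a window, against 28.2% of 11804 listed genes with one. The letters CAAAGTCCA of the liver and kidney factor HNF4 were in no member's window on either strand. They are rare in such windows, found in 0.5% of the 11804 listed genes, so their absence from 34 members says little. The letters GTTAATNAT of the factor HNF1, with N any base, were also in 0 members, against 0.635% of the listed genes. Their first part, GTTAAT, was in 2 members, Slc34a1 and Slc16a10. That is 5.88% of the members with a window, against 5.77% of the listed genes. A match of letters is a description of the window and not a measured site.

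In the Slc5a family of sodium-coupled carriers, all 8 genes had a log2 fold change below 0 in the authors' deposited table, and 5 of the 8 were called lower there. Slc5a1 encodes SGLT1, the high-affinity sodium-glucose carrier of the late proximal tubule. It was 1.71, 1.09, 0.672 and 1.75 FPKM in mutants 1 to 4 and 3.72, 3.68 and 3.40 FPKM in controls 1 to 3. Every mutant lay below every control, and mutant 3 was lowest. Slc5a1 averaged 1.31 ± 0.521 FPKM in mutants and 3.60 ± 0.175 FPKM in controls (SD, n = 4 and 3), and it fell by 1.02 on the log2(FPKM + 1) scale (SE 0.17, adjusted p = 0.0311, limma). Slc5a8 encodes SMCT1, which takes up lactate and other monocarboxylates with sodium. Its level was 1.74, 1.15, 0.464 and 1.62 FPKM in mutants and 3.46, 4.50 and 3.8 FPKM in controls, again without overlap. It averaged 1.24 ± 0.580 FPKM in mutants and 3.92 ± 0.531 FPKM in controls and fell by 1.17 (SE 0.21, adjusted p = 0.0424, limma). Both kept the call without mutant 3, with log2 fold changes of -0.88 (adjusted p = 0.0214, limma) for Slc5a1 and -0.98 (adjusted p = 0.0160, limma) for Slc5a8. Both lost it without mutant 2, mutant 4 or any single control, where adjusted p was 0.0780, 0.0531, 0.144, 0.182 and 0.0862 for Slc5a1 and 0.106, 0.0804, 0.146, 0.214 and 0.116 for Slc5a8 (limma; without mutants 2 and 4 and controls 1, 2 and 3 in turn).

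The other low Slc5a genes had the same pattern at lower levels. Slc5a12 encodes SMCT2, a low-affinity sodium-lactate carrier. It was 0.239, 0.160, 0.0729 and 0.141 FPKM in mutants and 0.554, 0.552 and 0.346 FPKM in controls, and its log2 fold change in the authors' deposited table was -1.66 (adjusted p = 0.00234). Slc5a11, which encodes the inositol carrier SMIT2, was 0.357, 0.294, 0.118 and 0.283 FPKM in mutants and 0.545, 0.776 and 0.503 FPKM in controls, with -1.21 in the authors' deposited table (adjusted p = 0.0414). Slc5a9, which encodes SGLT4, a carrier of mannose and fructose, was 0.426, 0.289, 0.205 and 0.282 FPKM in mutants and 0.580, 0.635 and 0.531 FPKM in controls, with -0.95 in the authors' deposited table (adjusted p = 0.0144). None of these 3 overlapped between the groups, and none was tested by limma because of its level. With no filter on low values limma called Slc5a12 as well (adjusted p = 0.0474), where 1.14% of all genes were lower and 0.433% higher.

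The remaining members of Slc5a were not called by either test. Slc5a2 encodes SGLT2, the carrier that takes back most of the filtered glucose in the early proximal tubule. It was 2.88, 2.16, 1.09 and 1.60 FPKM in mutants and 3.82, 2.51 and 2.78 FPKM in controls, so mutant 1 lay above controls 2 and 3 and the groups overlapped. Its log2 fold change was -0.49 (SE 0.21, adjusted p = 0.344, limma). The ratio of Slc5a1 to Slc5a2 FPKM was 0.596, 0.503, 0.619 and 1.10 in mutants and 0.973, 1.46 and 1.22 in controls. Slc5a6, the carrier of the vitamins biotin and pantothenate, averaged 4.93 ± 0.440 FPKM in mutants and 5.91 ± 0.388 FPKM in controls (adjusted p = 0.264, limma). Slc5a3, the inositol carrier SMIT1, averaged 2.37 ± 0.283 FPKM in mutants and 2.66 ± 0.499 FPKM in controls (adjusted p = 0.771, limma). Summed over the 8 genes, Slc5a came to 14.8, 12.8, 9.88 and 12.5 FPKM in mutants and 22.1, 21.3 and 19.0 FPKM in controls. The vitamin carrier Slc5a6 made up 37.1%, 39.3%, 47.7% and 35.9% of this sum in mutants and 28.3%, 28.1% and 28.9% in controls.

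**Figure D2:**
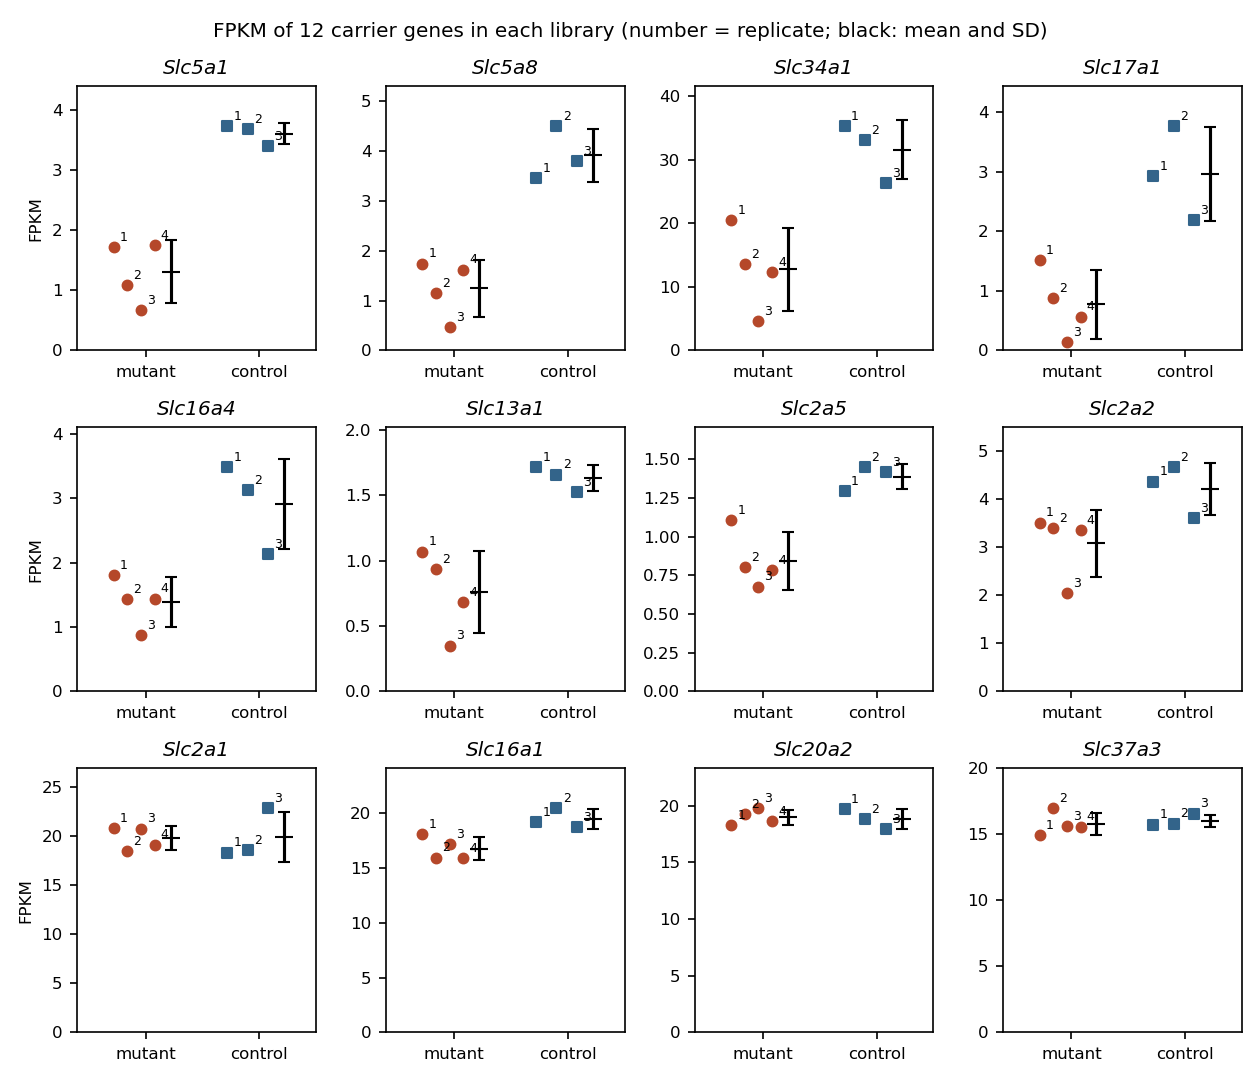
FPKM of single transporters (y axis, linear from 0, one panel per gene) in the 4 mutant and 3 control libraries (x axis); each numbered point is a library, and black marks show the group mean and SD. Slc5a1 and Slc5a8 stay below 1.8 FPKM in every mutant and above 3.3 FPKM in every control.

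Slc2a genes encode facilitative sugar carriers, which need no sodium, and limma called 0 of the 10 tested (unadjusted, 3 lower and 1 higher at p under 0.05). Of the 11 listed, 1 was lower in the authors' deposited table. Slc2a1 encodes GLUT1, the general glucose carrier, and had the highest level of the family. It was 20.9, 18.5, 20.8 and 19.1 FPKM in mutants and 18.3, 18.6 and 22.8 FPKM in controls, with a log2 fold change of -0.00 (SE 0.09, adjusted p = 0.999, limma). The family sum was 50.1, 46.8, 48 and 45.9 FPKM in mutants and 49.0, 47.8 and 51.2 FPKM in controls.

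Within Slc2a, 3 genes lay lower in every mutant than in every control. Slc2a5 encodes GLUT5, the fructose carrier, and was 1.11, 0.801, 0.678 and 0.784 FPKM in mutants and 1.30, 1.45 and 1.42 FPKM in controls. The groups did not overlap, and the log2 fold change was -0.38 (SE 0.10, adjusted p = 0.101, limma) on log2(FPKM + 1) and -0.72 (adjusted p = 0.0167) in the authors' deposited table. Slc2a2 encodes GLUT2, through which glucose leaves the proximal tubule cell on the blood side. It was 3.51, 3.39, 2.04 and 3.35 FPKM in mutants and 4.36, 4.65 and 3.59 FPKM in controls, with mutant 3 far below the other mutants. Its log2 fold change was -0.36 (SE 0.15, adjusted p = 0.309, limma), and without mutant 3 it was -0.23 (adjusted p = 0.335, limma). Slc2a8, the intracellular carrier GLUT8, was 7.93, 6.67, 6.74 and 6.78 FPKM in mutants and 8.14, 8.27 and 8.69 FPKM in controls, without overlap (log2 fold change -0.22, SE 0.08, adjusted p = 0.210, limma). Without mutant 1, which held the highest value of the mutants, its adjusted p was 0.0419 (limma).

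Slc2a3 alone among the members lay higher in every mutant than in every control. It encodes GLUT3, a high-affinity glucose carrier best known from neurons, and was 2.73, 3.32, 3.30 and 3.33 FPKM in mutants and 2.68, 2.45 and 2.55 FPKM in controls. Its log2 fold change was 0.23 (SE 0.08, adjusted p = 0.262, limma), so it was not called. Mutant 1 exceeded the highest control by only a small margin. Slc2a4, the insulin-responsive carrier GLUT4, averaged 5.63 ± 0.714 FPKM in mutants and 4.70 ± 0.257 FPKM in controls (adjusted p = 0.382, limma) and overlapped. The remaining Slc2a rows, Slc2a9, Slc2a10, Slc2a12, Slc2a13 and Slc2a4rg-ps, overlapped between the groups, with mutant over control ratios of mean FPKM of 0.941, 1.04, 0.837, 1.13 and 1.00 in that order.

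The Slc37a family holds carriers of sugar phosphates in the membrane of the endoplasmic reticulum, and none of its 4 genes was called (limma tested 2 and found 0 even at an unadjusted p under 0.05, and the authors' deposited table calls 0 of 4). Slc37a4 brings glucose-6-phosphate into the endoplasmic reticulum for the last step of glucose production. It was 11.0, 8.21, 7.67 and 8.74 FPKM in mutants and 10.2, 10.8 and 10.6 FPKM in controls. Mutant 1 was above every control and the other mutants were below every control. The log2 fold change was -0.23 (SE 0.11, adjusted p = 0.412, limma), and without mutant 1 it was -0.33 (adjusted p = 0.0397, limma). Slc37a3 averaged 15.8 ± 0.853 FPKM in mutants and 16 ± 0.454 FPKM in controls (adjusted p = 0.942, limma). Slc37a1 and Slc37a2 were below the filter and overlapped.

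Of the Slc16a family of monocarboxylate carriers, 3 of 13 were lower in the authors' deposited table, 0 of 11 tested were called by limma (4 lower and 0 higher at an unadjusted p under 0.05), and 5 of 13 did not overlap, all lower. Slc16a1 encodes MCT1, which carries lactate and pyruvate together with protons, and it had the highest level of the family. It was 18, 15.9, 17.2 and 15.9 FPKM in mutants and 19.2, 20.4 and 18.7 FPKM in controls, without overlap but with a small difference (log2 fold change -0.20, SE 0.07, adjusted p = 0.205, limma). Slc16a3, the lactate exporter MCT4, averaged 4.44 ± 0.621 FPKM in mutants and 4.12 ± 0.798 FPKM in controls (adjusted p = 0.857, limma). Slc16a7, the lactate carrier MCT2, averaged 1.14 ± 0.190 FPKM in mutants and 1.39 ± 0.127 FPKM in controls (adjusted p = 0.539, limma).

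Slc16a4 encodes MCT5 and had the largest log2 fold change of the tested Slc16a genes. It was 1.81, 1.43, 0.870 and 1.44 FPKM in mutants and 3.48, 3.12 and 2.13 FPKM in controls. Its log2 fold change was -0.71 (SE 0.16, adjusted p = 0.0762, limma) and -1.07 (adjusted p = 0.00193) in the authors' deposited table. Slc16a5, which encodes MCT6, was 2.05, 2.19, 1.90 and 2.14 FPKM in mutants and 3.07, 3.13 and 2.67 FPKM in controls. The log2 fold change of Slc16a5 was -0.36 (SE 0.08, adjusted p = 0.0711, limma) and -0.52 (adjusted p = 0.00273) in the authors' deposited table. Slc16a12, a creatine carrier, was 4.79, 5.02, 3.06 and 4.89 FPKM in mutants and 6.60, 7.01 and 5.65 FPKM in controls, with -0.53 in the authors' deposited table (adjusted p = 0.0470). By limma its difference was -0.46 (SE 0.14, adjusted p = 0.174), and -0.33 (adjusted p = 0.146) without mutant 3.

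Other Slc16a genes were close between the groups. The aromatic amino acid carrier Slc16a10 averaged 2.28 ± 0.259 FPKM in mutants and 2.48 ± 0.233 FPKM in controls. Slc16a13 averaged 5.14 ± 0.672 FPKM in mutants and 6.09 ± 0.0887 FPKM in controls without overlap (adjusted p = 0.364, limma), and its neighbour Slc16a11 overlapped at 0.535 ± 0.0766 FPKM in mutants and 0.627 ± 0.187 FPKM in controls. Slc16a6, Slc16a9 and Slc16a14 also overlapped, with ratios of mean FPKM of 0.865, 1.09 and 1.34. Over the 13 genes the sum was 53.2, 50.4, 49.4 and 50.4 FPKM in mutants and 59.1, 61.0 and 56.2 FPKM in controls.

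Sodium-coupled carriers of sulfate and of citric acid cycle acids, the Slc13a family, were few and low. Slc13a1 encodes NaS1, which takes back sulfate in the proximal tubule. It was 1.07, 0.937, 0.350 and 0.686 FPKM in mutants and 1.72, 1.66 and 1.52 FPKM in controls, without overlap. Slc13a1 had a log2 fold change of -0.60 (SE 0.14, adjusted p = 0.0831, limma) and -1.10 (adjusted p = 0.0180) in the authors' deposited table. Slc13a2, which encodes the citrate and dicarboxylate carrier NaDC1 on the lumen side, was 0.285, 0.372, 0.162 and 0.0727 FPKM in mutants and 0.504, 0.416 and 0.404 FPKM in controls. The groups did not overlap, yet the deposited table gave -0.99 with an adjusted p of 0.363. Slc13a3, the dicarboxylate carrier NaDC3 of the blood side, was 1.06, 0.497, 0.197 and 0.597 FPKM in mutants and 0.857, 1.02 and 0.504 FPKM in controls and overlapped (adjusted p = 0.833 in the authors' deposited table).

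**Figure D3:**
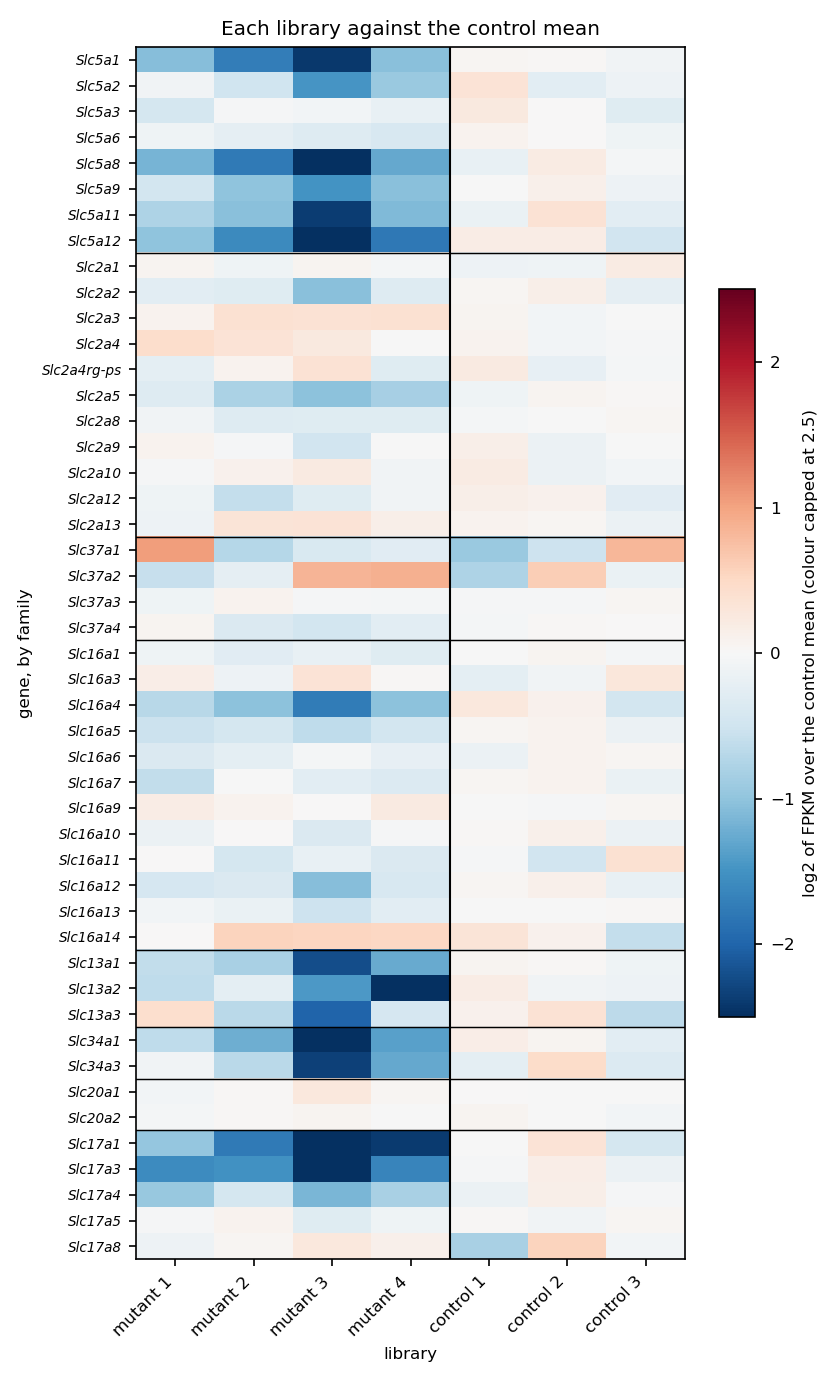
Log2 ratio of each transporter's FPKM in each library (columns, mutants left of controls) to its mean over the control libraries (colour scale), with 47 of the 48 genes in rows by family. Mutant 3 has the lowest mutant value in 24 of the rows, and the rows of Slc20a and most of Slc2a show little contrast.

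Among the phosphate carriers, no Slc34a or Slc20a gene was called by either test, and Slc34a1 alone lay apart between the groups. Slc34a1 encodes NaPi-IIa, the main carrier for phosphate reabsorption in the proximal tubule and the most abundant member of all in the control libraries. It was 20.5, 13.6, 4.55 and 12.3 FPKM in mutants and 35.3, 33.1 and 26.4 FPKM in controls. The highest mutant lay below the lowest control, and the mutants ran over a wide range, with mutant 3 far below the rest. The mean was 12.7 ± 6.53 FPKM in mutants and 31.6 ± 4.64 FPKM in controls, a ratio of 0.404. Its log2 fold change of -1.39 was the largest among tested members but had a large error (SE 0.44, adjusted p = 0.211, limma), and it was not called in the authors' deposited table (-1.31, adjusted p = 0.119). Without mutant 3 it was -1.0 (SE 0.19, adjusted p = 0.0715, limma). With the globin ratio as a covariate it was -1.11 (SE 0.14, adjusted p = 0.0133, limma). Slc34a3, which encodes NaPi-IIc, was 0.393, 0.263, 0.0829 and 0.174 FPKM in mutants and 0.352, 0.574 and 0.330 FPKM in controls and overlapped.

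Slc20a1 and Slc20a2 encode the general phosphate carriers PiT-1 and PiT-2, and both overlapped between the groups. Slc20a1 was 11.9, 12.6, 15.0 and 12.8 FPKM in mutants and 12.6, 12.4 and 12.3 FPKM in controls (log2 fold change 0.06, SE 0.08, adjusted p = 0.840, limma). Slc20a2 was 18.3, 19.3, 19.8 and 18.6 FPKM in mutants and 19.7, 18.8 and 17.9 FPKM in controls (log2 fold change 0.01, SE 0.06, adjusted p = 0.965, limma). In mutant 3, where Slc34a1 was lowest, both were at the highest level of the 7 libraries. Taken over Slc34a1, Slc34a3, Slc20a1 and Slc20a2, sodium-phosphate carrier RNA summed to 51.0, 45.8, 39.4 and 44.0 FPKM in mutants and 67.9, 64.8 and 56.9 FPKM in controls. Slc34a1 made up 40.1%, 29.8%, 11.6% and 28.0% of that sum in mutants and 52.0%, 51.1% and 46.3% in controls, without overlap.

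**Figure D4:**
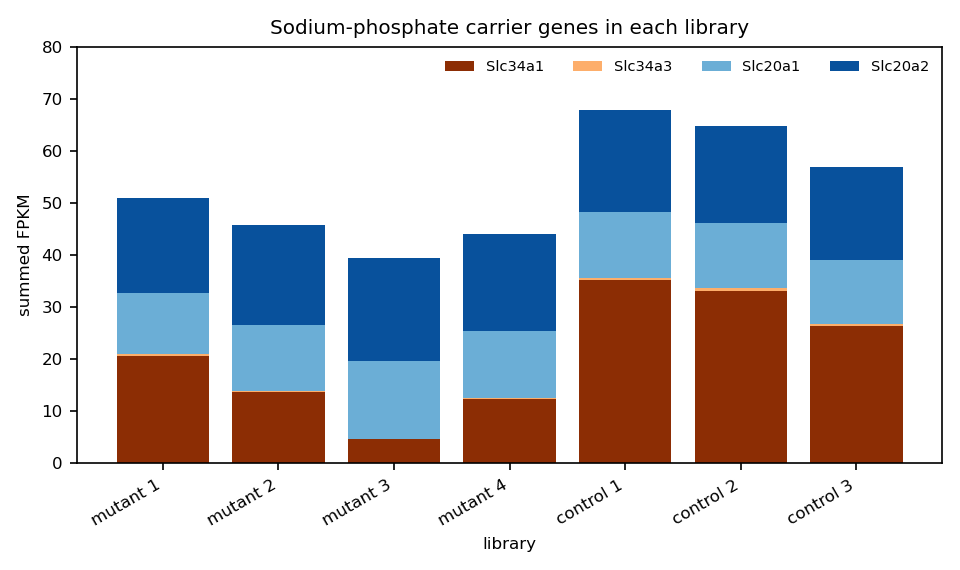
FPKM of the sodium-phosphate carriers (y axis, stacked bars from 0) in the 4 mutant and 3 control libraries (x axis), with Slc34a1, Slc34a3, Slc20a1 and Slc20a2 as segments. The Slc20a segments add up to 30.1 to 34.8 FPKM in mutants and 30.2 to 32.2 FPKM in controls, while the Slc34a1 segment spans 4.55 to 20.5 FPKM in mutants and 26.4 to 35.3 FPKM in controls.

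Slc17a genes, first described as phosphate carriers, encode carriers of urate and other organic anions in the proximal tubule and carriers of the lysosome and synaptic vesicle. Slc17a1 encodes NPT1 and was 1.51, 0.874, 0.137 and 0.567 FPKM in mutants and 2.93, 3.76 and 2.19 FPKM in controls. Its ratio of mean FPKM, 0.261, was the lowest of the 48 members, and its log2 fold change was -1.20 (SE 0.26, adjusted p = 0.0722, limma). It was not called in the authors' deposited table (-1.94, adjusted p = 0.123). Slc17a3, which encodes NPT4, was 0.293, 0.304, 0.119 and 0.277 FPKM in mutants and 0.849, 0.973 and 0.787 FPKM in controls. It had the smallest adjusted p of the members in the authors' deposited table (-1.81, adjusted p = 8.32e-07). With no filter limma called it as well (adjusted p = 0.0097). Slc17a4 was 0.406, 0.581, 0.358 and 0.448 FPKM in mutants and 0.715, 0.876 and 0.771 FPKM in controls (-0.81, adjusted p = 0.0111, in the authors' deposited table). Slc17a3, Slc17a1 and Slc17a4 lie next to each other in RefSeq order and are similar in sequence, so how reads were shared among them is uncertain. Slc17a5, the lysosomal sialic acid carrier sialin, averaged 6.04 ± 0.698 FPKM in mutants and 6.39 ± 0.308 FPKM in controls (adjusted p = 0.834, limma). Slc17a8, the vesicular glutamate carrier VGLUT3, averaged 1.39 ± 0.152 FPKM in mutants and 1.31 ± 0.597 FPKM in controls (adjusted p = 0.913, limma).

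Of 11 tested genes of phosphate balance, 3 fell and 0 rose by limma, and 6 of the 13 listed were lower in the authors' deposited table. Kl encodes Klotho, the co-receptor for the phosphate-lowering hormone FGF23, and was 1.36, 0.998, 0.458 and 0.872 FPKM in mutants and 3.68, 3.86 and 2.99 FPKM in controls (log2 fold change -1.25, SE 0.16, adjusted p = 0.0126, limma). Vdr, the vitamin D receptor, was 1.88, 1.67, 1.29 and 1.53 FPKM in mutants and 3.21, 2.91 and 2.59 FPKM in controls (-0.59, SE 0.10, adjusted p = 0.0333, limma). Ank, which exports pyrophosphate and ATP, was 6.20, 6.18, 6.35 and 6.07 FPKM in mutants and 8.15, 8.08 and 8.30 FPKM in controls (-0.35, SE 0.06, adjusted p = 0.0339, limma). Kl, like Slc2a5, is in the limma test only through the controls and mutant 1, and in the authors' deposited table, which has no such filter, its log2 fold change was -1.93 (adjusted p = 2.01e-09). The limma calls depended on single libraries: that of Kl was lost without mutant 4, control 1 or control 2 (adjusted p up to 0.102, limma). Those of Vdr and Ank were lost without any library but mutant 1 (adjusted p up to 0.190 and 0.203, limma). The parathyroid hormone receptor gene Pth1r was 28.1, 21.7, 18.9 and 22.7 FPKM in mutants and 32.8, 37.9 and 31.1 FPKM in controls (-0.56, SE 0.12, adjusted p = 0.0720, limma). The phosphate exporter gene Xpr1 was 5.18, 7.39, 7.14 and 7.47 FPKM in mutants and 7.61, 7.73 and 7.12 FPKM in controls (-0.13, adjusted p = 0.719, limma).

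Among 12 tested partners and scaffolds of the carriers, 0 were called by limma (6 lower and 0 higher at an unadjusted p under 0.05) and 3 were lower in the authors' deposited table. Among these were Atp1b1, a subunit of the sodium pump (-0.61, adjusted p = 0.00733), and Pdzk1, which anchors NaPi-IIa (-0.72, adjusted p = 0.00742), both in the authors' deposited table. Bsg, the partner of MCT1 and MCT4, was 216 to 273 FPKM in mutants and 220 to 255 FPKM in controls. Of 14 tested enzymes of sugar and lactate metabolism, 0 were called by limma (4 lower and 0 higher at an unadjusted p under 0.05). Fbp1 and Pck1, enzymes of glucose production, and Sord, of the polyol pathway, were lower in the authors' deposited table. Fbp1 was 3.94, 1.83, 0.995 and 1.63 FPKM in mutants and 6.74, 8.0 and 5.52 FPKM in controls (-1.39, SE 0.28, adjusted p = 0.0701, limma). The lactate dehydrogenase gene Ldha was 200 to 227 FPKM in mutants and 184 to 232 FPKM in controls.

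A list of proximal tubule and hypoxia genes held transcription factors and Vegfa, which encodes a growth factor. Of its 9 tested genes only Vegfa was called by limma, so none of the transcription factors was. Vegfa was 25.3, 24.6, 24.0 and 24.3 FPKM in mutants and 30.7, 28.8 and 30.9 FPKM in controls (-0.28, SE 0.06, adjusted p = 0.0495, limma). That call was lost without any library but mutant 1 (adjusted p up to 0.203, limma). Of the 10 listed, 3 were lower in the authors' deposited table, namely Vegfa, Hnf4a (adjusted p = 0.00313) and Ppara (adjusted p = 0.0172), which encodes a regulator of fat oxidation. Hnf4a, a main transcription factor of the proximal tubule, was 22, 23.7, 16.1 and 23.3 FPKM in mutants and 29.8, 32.4 and 30.4 FPKM in controls (-0.53, SE 0.12, adjusted p = 0.0783, limma). Among 6 regulators of glucose transport, such as Insr, Irs1 and Akt2, limma called 0 and found 0 below an unadjusted p of 0.05, and the authors' deposited table calls 0.

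In whole kidneys, fewer cells of a type and less RNA per cell cannot be told apart. A list of proximal tubule markers without any of these transporters, 29 of 30 of which were listed, summed to 295, 245, 157 and 239 FPKM in mutants and 397, 422 and 348 FPKM in controls. By limma 3 of 25 tested markers fell, namely Slc3a1, Slc22a6 and Apom, 0 rose, and the median log2 fold change was -0.72. Of the 29, 14 were lower in the authors' deposited table. In 22 of the 29 every mutant lay below every control, and in 2, Slc7a7 and Cyp4b1, every mutant lay above. Slc7a7 was 4.47, 3.70, 4.15 and 3.72 FPKM in mutants and 3.26, 3.29 and 2.99 FPKM in controls (adjusted p = 0.186, limma), and Cyp4b1 was 1.22, 1.43, 1.03 and 1.04 FPKM in mutants and 0.656, 0.832 and 0.963 FPKM in controls (adjusted p = 0.283, limma). None of the listed markers was at 0 in any library, and markers of podocytes, loop, distal tubule and collecting duct were present in every library, as the whole-kidney label says. The 3 limma calls were lost when mutant 2, mutant 4 or any single control was left out, and that of Apom also without mutant 3, with adjusted p up to 0.252 for Slc3a1, 0.235 for Slc22a6 and 0.159 for Apom (limma). The library order was also shared: mutant 3 had the lowest marker sum and the lowest mutant value of all 12 members lower in the deposited table, and of 24 of the 48 members (50%, against 28.5% of all listed genes). Mutant 1, with the highest marker sum among mutants, was the highest mutant in 23 members (47.9%, against 34%). Without mutant 3 the log2 fold change was -1.0 for Slc17a1, -0.60 for Slc16a4 and -0.48 for Slc13a1 (adjusted p = 0.0729, 0.105 and 0.0859, limma). Slc17a1 and Slc13a1 are in that test, and in the globin fit given next, only through their level in controls. With the globin ratio as a covariate 6 of the 35 members were lower and 0 higher by limma: Slc5a1, Slc5a8, Slc17a1, Slc34a1, Slc16a4 and Slc13a1. The part of the proximal tubule markers in the transporter results was not tested.

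Set against this marker sum library by library, a measure chosen after the values were seen, most genes of the table shift upward, since the sum is lower in mutants. As a percent of the marker sum, 10 of 48 members were still lower in every mutant than in every control (0.847% of all listed genes were), 21 were higher (65.9% of all listed genes were) and 17 overlapped. The 10 were Slc5a1, Slc5a8, Slc5a9, Slc5a11, Slc5a12, Slc16a4, Slc13a1, Slc34a1, Slc17a1 and Slc17a3. Slc34a1 was 6.93%, 5.57%, 2.91% and 5.15% of the marker sum in mutants and 8.89%, 7.85% and 7.57% in controls. Slc17a3 was 0.0994%, 0.124%, 0.0762% and 0.116% in mutants and 0.214%, 0.230% and 0.226% in controls. Slc5a1 was 0.580%, 0.444%, 0.429% and 0.732% in mutants and 0.938%, 0.871% and 0.976% in controls. Slc16a4 was at the edge, with 0.612% both in mutant 1 and in control 3 after rounding.

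Markers of other cells were looked at for the same libraries. The loop and distal tubule list summed to 97.8 to 103 FPKM in mutants and 101 to 107 FPKM in controls. Most of the mutant sum came from Calb1 alone, at 65.5 to 78.2 FPKM in mutants and 36.8 to 53.3 FPKM in controls. The sum therefore does not stand for the other genes of the list. By limma 4 of its 9 tested genes fell (Bsnd, Cldn16, Kcnj10 and Pou3f3) and 1, Calb1, rose, with a median log2 fold change of -0.89. In 9 of the 10 listed every mutant lay below every control, 8 were lower and 1 higher in the authors' deposited table, and mutant 3 was the lowest mutant in 7. The nephron progenitor list summed to 126 to 150 FPKM in mutants and 192 to 201 FPKM in controls, with 4 of 8 lower and 1 higher by limma. Stromal markers summed to 370 to 457 FPKM in mutants and 329 to 401 FPKM in controls, with 0 of 8 lower and 1 higher by limma. The gene called higher, Aldh1a2, was 184 to 202 FPKM in mutants and 140 to 141 FPKM in controls. Ren1 went the other way, at 13.9 to 36.6 FPKM in mutants and 56.1 to 69.3 FPKM in controls (adjusted p = 0.129, limma). The authors' deposited table calls Ren1 lower (adjusted p = 0.0223) and 3 stromal markers higher. This sum therefore does not stand for each gene of its list. Immune markers summed to 40.8 to 46.7 FPKM in mutants and 34.7 to 36.7 FPKM in controls; limma called 0 of 8 (0 lower and 5 higher at an unadjusted p under 0.05), while in 5 every mutant lay above every control. Endothelial markers summed to 185 to 195 FPKM in mutants and 172 to 184 FPKM in controls, and erythroid markers to 3564 to 6228 FPKM in mutants and 3002 to 5991 FPKM in controls. The calls on Bsnd, Cldn16, Kcnj10, Pou3f3 and Calb1 were all lost without control 1 or control 2 (adjusted p up to 0.203, limma). The podocyte list summed to 121 to 142 FPKM in mutants and 187 to 205 FPKM in controls, with 4 of 8 lower by limma (Nphs1 and Wt1 among them). Without control 1 or control 2 neither Nphs1 nor Wt1 was called (adjusted p up to 0.185 for Nphs1 and 0.134 for Wt1 over the libraries left out, limma). The sum for ureteric and collecting duct markers was 227 to 280 FPKM in mutants and 220 to 241 FPKM in controls, with 0 of 12 called by limma (4 lower and 4 higher at an unadjusted p under 0.05) and 3 lower and 3 higher in the authors' deposited table. Of the nerve list, which bears on Slc2a3 and Slc17a8, Elavl3, Sox10 and Th were not among the listed genes, and the rest summed to 4.40 to 9.13 FPKM in mutants and 5.74 to 11.6 FPKM in controls. Of the skeletal muscle list, which bears on Slc2a4, Ckm, Myod1, Myog and Ttn were not among the listed genes, and the rest summed to 5.76 to 7.63 FPKM in mutants and, in controls 1, 2 and 3, to 60.4, 7.24 and 6.21 FPKM. Slc2a4 in control 1 was 4.99 FPKM, against 4.51 and 4.59 FPKM in the other controls. Liver markers, which bear on Slc2a2 and Slc17a genes, summed to 12.6 to 46.5 FPKM in mutants and 24.8 to 28.4 FPKM in controls. Their part in the results was not tested. Some members overlap another gene in RefSeq, Slc34a1 with Pfn3, Slc16a4 with Rbm15 and Slc5a2 with Rusf1 among them, and whether counting used strand is not given in the sources used here, so reads of such pairs may not be separable.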

How the data were processed

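RNA of whole embryonic kidneys was measured in 4 mutant and 3 control libraries made with a directional kit, and groups came from the sample titles. The submitters' processing notes name, for what the authors ran, STAR 2.6.0c, HTSeq 0.6.1p2, DESeq2, Trim Galore 0.5.0 and FastQC 0.11.5, with the build mm39 (GRCm39). Strand setting and gene length are not given in the sources used here. The authors deposited 16167 genes with FPKM per library. Per the file headers, the table also holds the mean normalized count signal, log2 fold change with its error, test statistic (a score), p-value and adjusted p-value of a DESeq2 comparison. The deposited p-value is missing for 14 genes, and the lowest mean count was 18.5, so rarer genes are not listed. FPKM values are per gene length, so comparisons of levels between genes rest on lengths that are not given.

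Whole reads were recovered from the deposited values (100% within 0.05 reads of a whole number) and give the depths. No 2 libraries of a group agreed within counting noise (lowest chi-square per gene 23.6). The test was limma 3.58.1 (R 4.3.3) on log2(FPKM + 1), two-sided, with trended and robust variance, over the 13466 genes with at least 1 FPKM in at least 3 libraries (2701 left out). Benjamini-Hochberg adjustment ran over all of them, with a threshold of 0.05. The scale understates changes of low genes. The method was tested on simulated data. The members, gene lists and rules were chosen with earlier results of these data known. Values per library were to be given for members past either threshold and, in each family, for the 2 with the highest mean and the 2 with the largest change, 29 in all; more are given where they help. List genes past the limma threshold, and those a result turns on, are named too. Some genes are part of the counts and sums but are not reported one by one here.

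Alternatives were another pseudocount, other filters, 2 normalizations, another variance model, a replicate block, a globin covariate, the deposited test, limma-voom on recovered reads (added after seeing the data) and leaving out each library. Symbols matched RefSeq names for 47 of 48 members. Other steps ran in Python 3.11.15 with pandas 2.3.3, numpy 2.4.6 and, for plots, matplotlib 3.10.9.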

Additional observations from a re-analysis of the deposited data

Results flagged for a closer look

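Among the transporters given here, 7 had 1 mutant library far from the other 3, its gap to the next library exceeding Dixon's critical share of the range of the 4 mutants. Chance alone gives such a gap in about 1 in 20 groups. In 3 of them the low library was mutant 3: Slc2a2 at 2.04 FPKM (gap 0.893 of the range), Slc16a12 at 3.06 FPKM (0.883) and Slc17a3 at 0.119 FPKM (0.855). In the other 4 the odd library was mutant 1. It was high in Slc2a8, at 7.93 FPKM (0.908), and in Slc37a1, at 1.30 FPKM (0.858). It was low in Slc2a3, at 2.73 FPKM (0.961), and in Slc16a14, at 0.144 FPKM (0.896). Groups of 3 controls were not examined this way.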

How the results depend on the processing

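The planned quasi-likelihood count test was not run, since the deposited unit is FPKM; limma-voom on recovered reads took its place. All genes called numbered 206 (142 lower, 64 higher), and 109 (65 lower, 44 higher) with a pseudocount of 0.1, 60 (29 lower, 31 higher) with a minimum of 5 FPKM, 2 with the replicate block, 886 in the deposited test, and 11 to 486 when single libraries were left out. Transporters called numbered 2, and 0 with a pseudocount of 0.1, 0 of 14 with a minimum of 5 FPKM, 0 with the replicate block, 4 without a filter (Slc5a1, Slc5a8, Slc5a12 and Slc17a3), 6 with the globin covariate (Slc5a1, Slc5a8, Slc17a1, Slc34a1, Slc16a4 and Slc13a1), 5 with limma-voom without a filter, 12 in the deposited test, and 0 to 8 when single libraries were left out. The 8, without mutant 1, were Slc5a1, Slc5a8, Slc17a1, Slc2a8, Slc16a4, Slc2a5, Slc13a1 and Slc37a4. Of these, Slc17a1, Slc2a5 and Slc13a1 passed the filter only through the controls, since none of mutants 2, 3 and 4 reached 1 FPKM. In the globin fit Slc17a1 and Slc13a1 also passed it through the controls. No alternative called a transporter higher. The cause of these differences was not tested.

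Same-numbered mutant and control libraries did not deviate together (r = -0.16, 0.0276 and 0.0980 for numbers 1 to 3). Whether the numbers pair samples is not stated, and so few correlations cannot decide it. In the fit with the replicate block, which drops mutant 4, log2 fold changes were -1.12 for Slc5a1 (adjusted p = 0.119, limma) and -1.26 for Slc5a8 (adjusted p = 0.138, limma).

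Among the 29 transporters named by rule, signs turned in 4, all uncalled and near 0; the other 19 were not checked for sign. Slc2a1 was 0.0195 after quantile normalization, 1.1e-05 with size factors and 0.0142 with the replicate block, and -0.0549 to 0.0969 when single libraries were left out. Those left-out ranges were -0.104 to 0.270 for Slc17a8, -0.0178 to 0.0467 for Slc20a2 and -0.0566 to 0.000985 for Slc37a3. Depth limits the 13 transporters below the filter, with 9 to 391 reads per library.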

Other observations

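Slc37a1, a carrier linked to sugar phosphates, was 1.30, 0.386, 0.481 and 0.515 FPKM in mutants and 0.330, 0.442 and 1.12 FPKM in controls. Mutant 1 and control 3 were the highest libraries of their groups. Slc37a2 was 0.145, 0.185, 0.387 and 0.400 FPKM in mutants and 0.126, 0.329 and 0.191 FPKM in controls. Slc17a8 was 1.21, 1.36, 1.57 and 1.43 FPKM in mutants and 0.752, 1.94 and 1.24 FPKM in controls, with controls 1 and 2 the lowest and highest of all 7 libraries. These values were picked after they were seen.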
